A study of Mus musculus with 6 samples.

Results

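The genes described here are 45 genes of mitosis and chromosome segregation, taken by gene name from a list of spindle checkpoint, kinase, kinetochore, spindle motor, cohesin, condensin and cyclin B genes. All 45 were found among the 34650 gene names of the array, were well above background on all 6 arrays, and were among the 21563 genes tested. RNA was measured on one-colour Agilent arrays from mouse embryonic stem cells. The 3 wild-type dishes (WT) held the line BJ FF2 ES, and the 3 triple knockout dishes (TKO) held a derivative of that line with knockout of Tet1, Tet2 and Tet3. Tet enzymes oxidise the methyl group of 5-methylcytosine in DNA. Both groups were cultured in parallel in 2i medium (which holds cells in the naive pluripotent state) on inactivated mouse embryonic feeders. Before collection they were separated from the feeders and grown on matrigel, and 1 dish per sample gave the RNA. The altered exons, and whether the TKO cells were 1 clone, are not given in the labels, so p-values measure only the spread between dishes, which may be technical. The labels give no stage of the cell cycle.

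In mitosis, Cdk1 with cyclin B starts division, condensin compacts the chromosomes, and cohesin holds sister chromatids together until separase cuts it. Kinetochores join centromeres to spindle microtubules, Aurora kinases correct wrong attachments, and the spindle checkpoint holds back the anaphase-promoting complex and its activator Cdc20 until all chromosomes are attached. Many of these genes are transcribed mainly in G2 and mitosis. Embryonic stem cells divide fast, with a short G1 phase, and express them at high levels.

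Each level below is the log2 of the processed signal relative to the 75th percentile of its array, and differences were taken as TKO minus WT (n = 3 dishes in each group). The 75th percentile lay between 366.9 and 412.9 intensity units, 51.9% to 58.5% of spots were well above background and 0 were saturated. All WT arrays and TKO replicate 1 lay in 1 row of the slide and TKO replicates 2 and 3 in the other, where negative controls spread more widely. The 8 embryonic stem cell markers examined, Pou5f1, Sox2 and Nanog among them, were well above background on all arrays. Their summed linear signal, in units of the 75th percentile, was 637 to 658 in WT and 362 to 369 in TKO. Of the 8, 7 fell (87.5%, against 29.7% of all genes tested), and single markers differed by -4.07 to 0.04. Of 12 fibroblast (feeder) markers 11 were tested, 8 rose (72.7%, against 30.0% of all genes tested) and 1 fell (9.09%, against 29.7%). Their summed signal was 34.5 to 35.8 in WT and 45.5 to 49.4 in TKO, and single markers differed by -2.26 to 0.67. Lum, the other fibroblast marker, did not pass the filter on dim probes. Of 9 markers of differentiated lineages 7 were tested, with 2 higher (28.6%, against 30.0% of all genes tested) and 4 lower (57.1%, against 29.7%). Their sums were 2.05 to 2.10 in WT and 1.35 to 1.50 in TKO. Single markers differed by -1.11 to 3.22, so the lower sum does not stand for each marker. T and Pax6 were not tested. The part of these cell types in the results below was not tested. Tet1 (-1.37) and Tet2 (-2.93) fell, and Tet3 differed by -0.24 without passing the test (adjusted p = 0.0842).

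More mitosis genes were lower than higher in TKO cells, by small amounts. Of the 45 genes, 23 fell (51.1%, against 29.7% of all genes tested), 6 rose (13.3%, against 30.0% of all genes) and 16 did not pass the test, which was limma with a Benjamini-Hochberg adjusted p under 0.05 over all genes. The genes that fell included the cyclin Ccnb2, the condensin subunits Ncapg and Smc4, the checkpoint kinase Bub1b, the cohesin subunit Stag1 and the cohesin protector Sgol2. Those that rose were the Aurora kinase Aurkc, the cohesin subunit Stag2, Pttg1, Top2a, Cenpe and Ncapd2. The median difference of the 45 genes was -0.17, a level 1.12-fold lower in TKO, over a range from -0.85 to 1.12. The median of all tested genes was -0.01. In an RNA pool of a whole dish, fewer cells in mitosis and less of each RNA per cell cannot be told apart.

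The changes were frequent and shallow. In all, 59.6% of the genes tested passed the adjusted p, and 64.4% of the mitosis genes did. A difference of at least 0.5 that also passed was found for 8 of the 45 (17.8%), against 30.9% of all genes. A 2-fold change was found for 1, Aurkc (2.22%), against 13.7% of all genes. The median size of the difference, without its sign, was 0.21 for the mitosis genes and 0.30 for all genes. The WT and TKO dishes did not overlap for 37 of the 45 (82.2%, against 67.6% of all genes tested): TKO was lower for 27 (60.0%, against 34.1% of all genes) and higher for 10 (22.2%, against 33.5%). Scaling each array to its median in place of its 75th percentile moved the median of all genes to -0.20 and changed the split of all called genes from 6464 higher and 6398 lower to 3874 higher and 9315 lower. With that scaling 2 mitosis genes rose, 29 fell, and their median was -0.36, which still lay below the median of all genes.

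**Figure D1:**
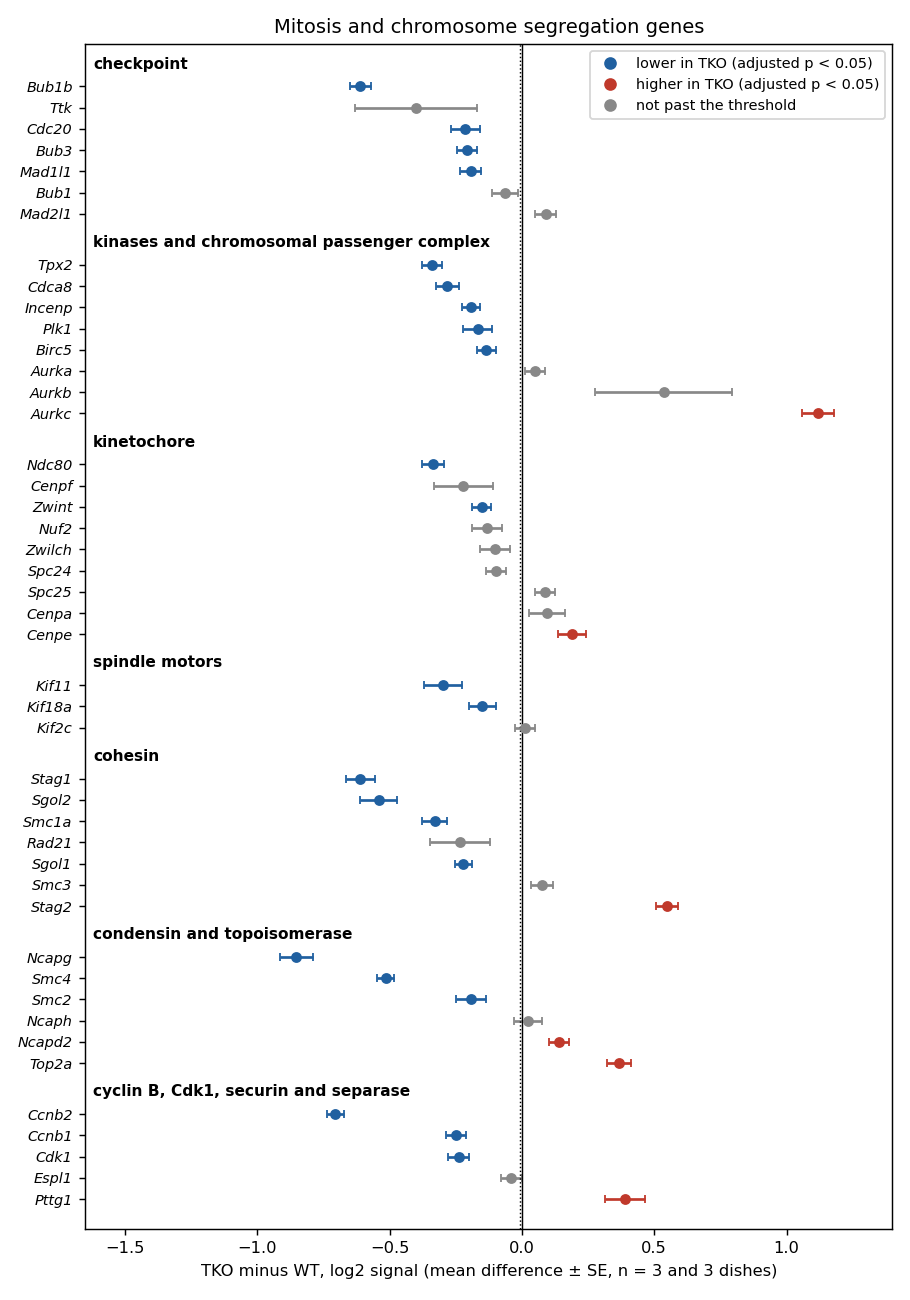
Difference between TKO and WT (x axis, log2 signal, mean ± SE, 3 dishes per group) of the 45 genes, grouped by role, with blue for genes that fell, red for genes that rose and grey for those that did not pass the test (limma, adjusted p under 0.05). The solid line marks 0 and the dotted line the median of all genes tested (-0.01). Most points lie to the left of 0, Ncapg lies farthest left (-0.85) and Aurkc farthest right (1.12), each gene being read by its brightest probe. With arrays scaled to their medians, Top2a, Pttg1, Cenpe and Ncapd2 no longer passed as higher.

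The promoters of these genes have sequence features in common that played no part in choosing them. The cell cycle homology region (CHR), with the letters TTTGAA, and the CCAAT box are the elements through which many G2 and mitosis genes are known to be repressed in resting cells and activated before division. RefSeq windows of 250 bases before to 50 bases after the start of transcription (build GRCm38.p6) were at hand for 37 of the 45 genes, in 40 windows. TTTGAA, searched on both strands, was in 21 of the 40 windows (52.5%) and in 17.9% of all 32851 windows. It began within 100 bases before or 50 bases after the start in 18 of the 40 windows and in 8.01% of all windows. CCAAT, also searched on both strands, was in 72.5% against 37.4%, and both motifs were in 47.5% against 6.95%. Matches of the 2 motifs shared bases in 1 of the 40 windows. By call, TTTGAA was in 52.2% of 23 windows of genes that fell, 58.3% of 12 windows of genes that did not pass and 40.0% of 5 windows of genes that rose. A match describes the sequence and is not evidence of binding.

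The 150 bases before the start are printed for 4 genes that fell and whose windows hold TTTGAA, then for the gene that rose most and for Stag1, whose windows do not. Capitals mark CCAAT or ATTGG, its reverse complement, and TTTGAA, and each sequence runs 5′ to 3′ on the strand of the gene. The regions are chr9:70421555-70421704 (minus strand) for Ccnb2, chr10:69352913-69353062 (minus) for Cdk1, chr4:118437344-118437493 (minus) for Cdc20, chr5:45669775-45669924 (plus) for Ncapg, chr7:6995235-6995384 (plus) for Aurkc and chr9:100643298-100643447 (plus) for Stag1.
Ccnb2: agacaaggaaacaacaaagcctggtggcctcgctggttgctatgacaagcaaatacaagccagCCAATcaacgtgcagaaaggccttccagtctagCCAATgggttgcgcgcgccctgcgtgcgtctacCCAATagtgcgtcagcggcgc
Cdk1: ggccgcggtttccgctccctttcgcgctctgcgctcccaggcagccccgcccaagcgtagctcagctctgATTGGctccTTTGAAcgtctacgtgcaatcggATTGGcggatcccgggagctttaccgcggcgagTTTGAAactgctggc
Cdc20: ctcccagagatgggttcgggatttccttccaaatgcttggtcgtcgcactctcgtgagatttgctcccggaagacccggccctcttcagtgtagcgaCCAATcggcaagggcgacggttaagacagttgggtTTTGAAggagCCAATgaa
Ncapg: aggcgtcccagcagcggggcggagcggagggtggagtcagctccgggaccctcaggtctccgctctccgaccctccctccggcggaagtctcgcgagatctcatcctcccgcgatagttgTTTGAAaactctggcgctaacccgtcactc
Aurkc: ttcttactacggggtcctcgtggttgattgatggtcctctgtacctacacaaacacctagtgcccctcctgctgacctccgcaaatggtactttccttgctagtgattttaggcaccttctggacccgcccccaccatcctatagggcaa
Stag1: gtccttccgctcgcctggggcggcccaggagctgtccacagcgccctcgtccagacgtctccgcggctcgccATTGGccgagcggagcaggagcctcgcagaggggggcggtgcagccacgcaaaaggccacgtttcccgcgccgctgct
Ccnb2 has 3 CCAAT boxes in this stretch, with TTTGAA starting 4 bases after the first transcribed base and at -167, both outside the stretch shown. Cdk1 has TTTGAA at -71 and -15, Cdc20 at -18 and Ncapg at -30, counted from the start to the first base of the match. The CCAAT box of Ncapg lies at -176, before the stretch shown, and that of Aurkc at 24, after it.

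Among the genes that start and end mitosis, the B cyclins and Cdk1 fell while securin rose. In this group of 5 genes 3 fell (against 29.7% of all genes tested) and 1 rose (against 30.0%). Ccnb2, a cyclin partner of Cdk1, measured 6.20, 6.23 and 6.22 (WT) and 5.52, 5.52 and 5.50 (TKO). The TKO dishes lay close together and far below WT, with a difference of -0.71 ± 0.032 (SE; adjusted p = 2.19e-05) or 1.63-fold lower. Ccnb1, the essential B-type cyclin of mitotic entry, fell less, by 0.25 ± 0.038 on the log2 scale (adjusted p = 0.00234). Cdk1, the kinase that both cyclins activate, had WT levels of 3.39, 3.33 and 3.38 and TKO levels of 3.17, 3.12 and 3.09. Each TKO dish was below each WT dish, and the difference was -0.24 ± 0.040 (adjusted p = 0.00334). It did not pass when the probes of Cdk1 were averaged (-0.28, adjusted p = 0.0585) or in the first array row alone (-0.19, adjusted p = 0.0635). Pttg1 (securin), which inhibits separase until anaphase, rose by 0.39 ± 0.076 (adjusted p = 0.00623), with 5.51 to 5.54 in WT and 5.80 to 6.08 in TKO. A second Pttg1 probe rose by 0.70. Pttg1 lies on chromosome 11, where the median gene rose by 0.34. With that shift of its chromosome removed, its difference was 0.05 and did not pass (adjusted p = 0.606). Espl1 (separase), the protease that cuts cohesin, differed by -0.04 ± 0.039 and did not pass.

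Of the 6 genes of condensin I and topoisomerase 3 fell (against 29.7% of all genes tested) and 2 rose (33.3%, against 30.0%). Ncapg, a HEAT-repeat subunit of condensin I, had the largest fall of the 45 genes as read by their brightest probes. Averaged over its 3 probes, of which 2 were at or near background in TKO, Nuf2 fell further (-3.28). Ncapg stood at -1.13, -1.05 and -1.25 in WT, against -1.99, -1.96 and -2.04 in TKO. The groups lay well apart, with a difference of -0.85 ± 0.061 (adjusted p = 0.000111), 1.81-fold lower. Ncapg was read by 1 probe of low signal, and its difference ranged from -1.05 to -0.59 over the 19 alternatives in processing. Smc4, an ATPase of condensin I and II, measured 4.94, 4.93 and 4.93 (WT) and 4.42, 4.43 and 4.41 (TKO), so that dishes of 1 group were nearly identical. It fell by 0.52 ± 0.032 on the log2 scale (adjusted p = 6.14e-05), 1.43-fold. Its partner ATPase Smc2 fell by 0.19 ± 0.057 (adjusted p = 0.0315). The call of Smc2 was lost without WT replicate 1 (-0.21), 2 (-0.20) or 3 (-0.17) or TKO replicate 2 (-0.14) or 3 (-0.20), and with array row as a block (-0.11, adjusted p = 0.252). Ncapd2, the other HEAT-repeat subunit of condensin I, rose by 0.14 ± 0.039 (adjusted p = 0.0237), a call lost without WT replicate 1 (0.14), 2 (0.15) or 3 (0.13) and turned to -0.055 with arrays scaled to their medians. Ncaph, the kleisin that bridges the ATPases, differed by 0.02 ± 0.053 and did not pass. Of the 3 subunits of condensin II, which acts early in prophase, Ncapg2 (-0.57) and Ncaph2 (-0.55) fell and the other did not pass. Top2a, the topoisomerase that untangles sister DNA, rose by 0.37 ± 0.044 (adjusted p = 0.000898) with 4.44 to 4.50 in WT and 4.79 to 4.90 in TKO. It is also on chromosome 11, the median of the genes within 5 Mb of it rose by 0.39, and with the shift of the chromosome removed its difference was 0.02 (adjusted p = 0.650).

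Of the 7 cohesin genes 4 fell (57.1%, against 29.7% of all genes tested) and 1 rose (14.3%, against 30.0%). The alternative subunits Stag1 and Stag2 moved in opposite directions. A cohesin ring carries 1 of the 2, and rings with Stag2 are known to be the main form at centromeres. Stag1 had WT levels of 2.37, 2.41 and 2.52 and TKO levels of 1.85, 1.84 and 1.78. All TKO dishes were lower, by 0.61 ± 0.054 on average (adjusted p = 0.000257; 1.53-fold), and a second Stag1 probe fell by 0.79 ± 0.038. Stag2 stood at 2.57, 2.49 and 2.47 in WT, against 3.05, 3.04 and 3.09 in TKO. All TKO dishes were higher, with a difference of 0.55 ± 0.042 (adjusted p = 0.000145; 1.46-fold). The genes within 5 Mb had a median of -0.11 around both Stag1 and Stag2. Smc1a, an ATPase of the ring, fell by 0.33 ± 0.046 (adjusted p = 0.00158), and the other ATPase, Smc3, differed by 0.08 without passing. Rad21, the kleisin that separase cuts, differed by -0.23 ± 0.113 and did not pass (adjusted p = 0.129), with TKO replicate 2 (4.81) below the other TKO dishes (5.16 and 5.22), and was -0.11 without that dish. Both shugoshins, which protect centromeric cohesin, fell. Sgol2 measured 2.11, 2.02 and 2.16 (WT) and 1.68, 1.48 and 1.51 (TKO). The groups did not overlap (-0.54 ± 0.070, adjusted p = 0.00118), and the median of the 5 Mb around it on chromosome 1 was -0.34. Sgol1 fell by 0.22 ± 0.032 (adjusted p = 0.00177).

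**Figure D2:**
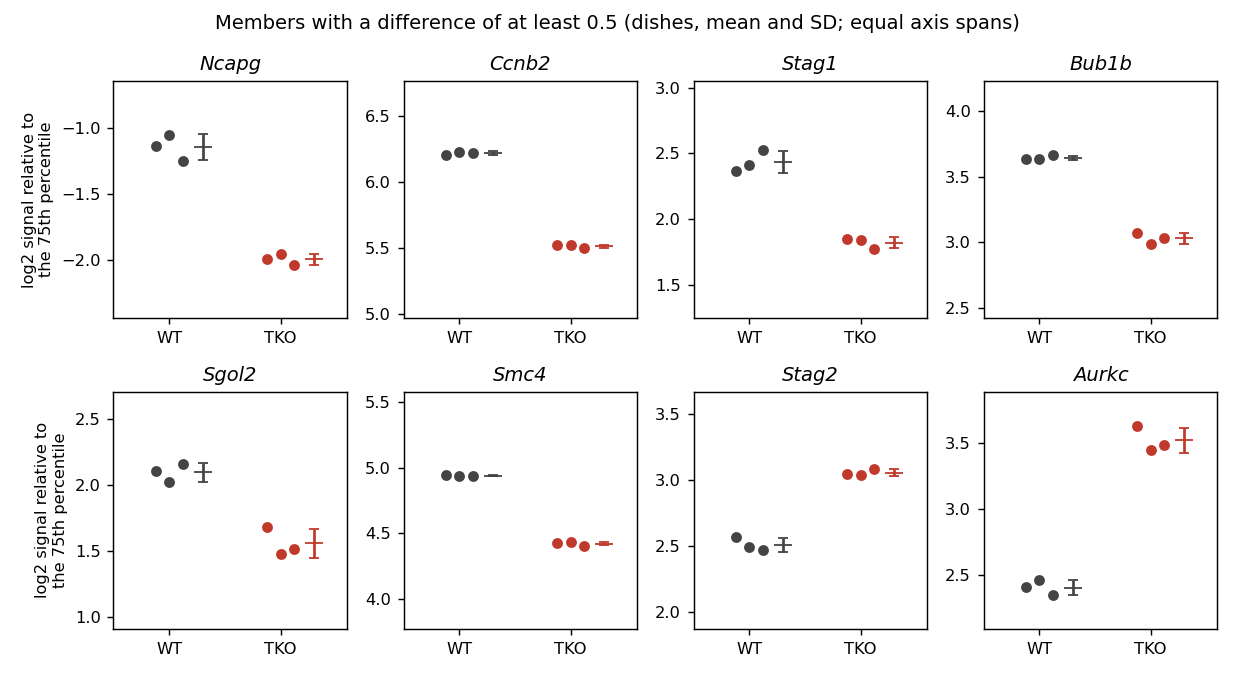
Level in each dish (points, y axis, log2 signal relative to the 75th percentile of the array) of the 8 genes that passed the test with a difference of at least 0.5, with the mean and SD of each group beside the points (3 dishes per group). Every panel spans the same range of log2 units, and in every panel all TKO dishes lie on one side of the WT dishes. Stag2 and Aurkc are higher in TKO and the other 6 lower, in each case also with arrays scaled to their medians.

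Of the 8 genes of kinases and the chromosomal passenger complex 5 fell (62.5%, against 29.7% of all genes tested). Only 1 rose (12.5%, against 30.0%), Aurkc, with the largest rise of the 45. Aurkc, an Aurora kinase known mainly from meiosis and the early embryo, had WT levels of 2.41, 2.46 and 2.35 and TKO levels of 3.63, 3.45 and 3.49. Every TKO dish lay far above every WT dish, and the difference of 1.12 ± 0.062 (adjusted p = 4.31e-05) was 2.17-fold. The change was smaller on a second probe of Aurkc, which rose by 0.56 ± 0.069 (adjusted p = 0.00112 over all probes). The 2 probes differ in sequence and position (mm9, chromosome 7, plus strand). The brighter, A_55_P1999511, lies at 6955707 to 6955766 and is shown by its first 30 bases. The other, A_66_P131931, spans 6955217 to 6955537, more than its own 60 bases, and is shown whole.
A_55_P1999511: aggaagctctccaggctctgtttgttagtg
A_66_P131931: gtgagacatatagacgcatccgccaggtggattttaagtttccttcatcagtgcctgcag
Aurkb, the Aurora kinase of the chromosomal passenger complex in dividing cells, stood at -2.57, -2.73 and -2.81 in WT, against -2.46, -1.58 and -2.46 in TKO. The TKO dishes lay above the WT dishes, but TKO replicate 2 stood apart from the other two, and the difference of 0.54 ± 0.258 did not pass (adjusted p = 0.127) and was 0.24 without that dish. Aurkb, read by 1 probe of low signal, is on chromosome 11, and the genes within 5 Mb had a median of 0.36. Aurka, which acts at spindle poles, differed by 0.05 ± 0.039 and did not pass. The other subunits of the passenger complex all fell a little: Cdca8 (borealin) by 0.28 ± 0.043, Incenp, the scaffold that binds and activates the kinase, by 0.19 ± 0.034, and Birc5 (survivin) by 0.13 ± 0.035 (adjusted p = 0.00237, 0.00389 and 0.0190). Incenp did not pass in the first array row alone (-0.19, adjusted p = 0.0625). Birc5 fell although the median of the genes within 5 Mb of it on chromosome 11 rose by 0.33. Its call was lost without WT replicate 1 (-0.13) or 3 (-0.13) or TKO replicate 3 (-0.13), and with array row as a block (-0.15, adjusted p = 0.0669). On its other, dimmer probes Birc5 fell by 0.26 and 0.25 (adjusted p = 0.00376 and 0.00501 over all probes). Tpx2, the activator of Aurka on the spindle, fell by 0.34 ± 0.037 (adjusted p = 0.000611). Plk1, a kinase of mitotic entry and spindle assembly, fell by 0.17 ± 0.054 (adjusted p = 0.0395). The call of Plk1 was lost without WT replicate 1 (-0.18), 2 (-0.16) or 3 (-0.16) or TKO replicate 2 (-0.14) or 3 (-0.15), and with array row as a block (-0.07).

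In the spindle checkpoint 4 of 7 genes fell (57.1%, against 29.7% of all genes tested) and none passed as higher (against 30.0%). Bub1b (BubR1), which binds and inhibits Cdc20, measured 3.63, 3.63 and 3.66 (WT) and 3.07, 2.99 and 3.03 (TKO). Both groups were tight and far apart, with a difference of -0.61 ± 0.038 (adjusted p = 6.62e-05), 1.53-fold lower. Bub1, its paralog that recruits the checkpoint to kinetochores, had WT levels of 3.30, 3.32 and 3.33 and TKO levels of 3.33, 3.18 and 3.24, so that the groups overlapped (-0.06 ± 0.049). Bub3, which carries both to the kinetochore, fell by 0.21 ± 0.037 and Mad1l1, which recruits Mad2 there, by 0.19 ± 0.039 (adjusted p = 0.00444 and 0.00698). Mad1l1 did not pass with each array centred by chromosome, which subtracts the median level of the genes on that chromosome (-0.10, adjusted p = 0.0795). Mad2l1, the Mad2 protein that is converted to the inhibitory form, differed by 0.09 ± 0.040, higher in every TKO dish but not past the test (adjusted p = 0.108). It passed without TKO replicate 1 (0.12, adjusted p = 0.0436). Ttk (Mps1), the kinase at the head of the checkpoint, stood at -0.17, -0.15 and -0.17 in WT, against -0.77, -0.89 and -0.02 in TKO. TKO replicate 3 was above every WT dish while the others were far below, and the difference of -0.40 ± 0.231 did not pass (adjusted p = 0.190). Without TKO replicate 3 it was -0.67 and passed (adjusted p = 0.000617). Cdc20, the target of the checkpoint, fell by 0.21 ± 0.055 (adjusted p = 0.0178). Its call was lost without WT replicate 2 (-0.19) or 3 (-0.21) or TKO replicate 3 (-0.20).

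Of the 9 kinetochore genes 2 fell (22.2%) and 1 rose (11.1%), both below the shares of all genes tested (29.7% and 30.0%), with a median of -0.10. Ndc80, the microtubule-binding subunit of the complex of the same name, measured 1.53, 1.44 and 1.54 (WT) and 1.16, 1.15 and 1.19 (TKO). Its TKO dishes lay together below WT, and it fell by 0.34 ± 0.042 (adjusted p = 0.00108). The other 3 subunits of the complex, Nuf2 (-0.13), Spc24 (-0.10) and Spc25 (0.09), did not overlap between groups and did not pass (adjusted p = 0.0907, 0.0715 and 0.0994). Zwint, which links this complex to the checkpoint recruiters of the kinetochore, fell by 0.15 ± 0.036 (adjusted p = 0.0132). A second Zwint probe differed by 0.12 the other way, and with the probes averaged the difference was -0.02 and did not pass. Zwint also lost the call with array row as a block (-0.15, adjusted p = 0.0745). Cenpe, a kinesin that moves chromosomes to the spindle equator, rose by 0.19 ± 0.053 (adjusted p = 0.0239). Its call was lost without TKO replicate 1 (0.18), 2 (0.20) or 3 (0.19) and with array row as a block (0.22, adjusted p = 0.0771), and with arrays scaled to their medians its difference was -0.0045. Cenpa, the histone H3 variant of centromeres, Cenpf, a large kinetochore coat protein, and Zwilch, a subunit of the complex that brings dynein and Mad1 to kinetochores, differed by 0.10, -0.22 and -0.10 without passing. The probe of Cenpf had low signal (mean -2.28 in WT and -2.50 in TKO). Single arrays moved the differences: Cenpa was 0.030 without TKO replicate 1, Cenpf -0.099 without TKO replicate 3, and Zwilch -0.072 without WT replicate 1. With array row as a block Cenpa passed as higher (0.23, adjusted p = 0.0301).

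Nuf2 had 3 probes that disagreed in size. They are shown because the result for the gene turns on which is read. A_55_P2076048, the brightest and the one used above, lies at 171428989 to 171429048 of chromosome 1 (mm9, minus strand). It had WT levels of 0.89, 0.86 and 1.03 and TKO levels of 0.78, 0.79 and 0.82, a small step. A_55_P2113964 lies at 171440451 to 171440510 and is annotated to another transcript record than the other probes. It stood at 0.59, 0.67 and 0.79 in WT, against -4.60, -5.95 and -5.26 in TKO, where it was well above background in 1 dish of 3. It was at least 38.3-fold lower in TKO. A_55_P2174704, at 171428269 to 171428328, read -2.01, -2.15 and -1.98 in WT. It was not well above background on any TKO array, and was at least 6.66-fold lower there. Both of these dim probes passed the filter through their WT arrays, so no p-value is given for their falls. Each bound sets the WT mean against a TKO mean. For each TKO array, that mean takes the higher of the probe's own level and the lowest level of any probe well above background. A higher floor would give a smaller bound. So 2 of the probes were at or near background in TKO while the third kept most of its signal. Which exons or untranslated parts the probes lie in was not analysed here.
A_55_P2076048: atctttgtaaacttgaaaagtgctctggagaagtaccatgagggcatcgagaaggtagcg
A_55_P2113964, first 30 bases: gcactctctgaactacttagtgtctgtgca
A_55_P2174704, first 30 bases: ccctacatatctgattgctgttgtttaggt

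**Figure D3:**
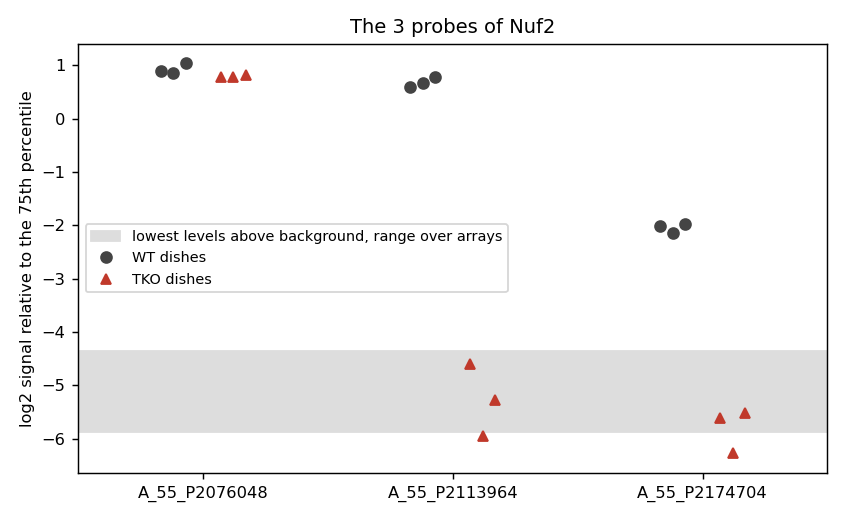
Level of the 3 Nuf2 probes in each dish (y axis, log2 signal relative to the 75th percentile; circles for WT and triangles for TKO). The grey band gives the lowest level of any probe well above background, over the 6 arrays (-5.87 to -4.36). For A_55_P2076048 WT and TKO lie close together, and for the other probes all TKO dishes lie at the level of the band or below it.

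Over all 45 genes, 64 probes passed the filter. There was 1 probe for 31 genes and several for 14, and in 11 of the 14 all probes lay on one side of 0. Probes lay on both sides of 0 for Mad2l1, Zwilch and Zwint.

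Of the 3 spindle motors 2 fell (66.7%, against 29.7% of all genes tested). Kif11 (Eg5), which pushes spindle poles apart, fell by 0.30 ± 0.072 (adjusted p = 0.0145), but not with array row as a block (-0.17, adjusted p = 0.122). Kif18a, which dampens chromosome movement, fell by 0.15 ± 0.050 (adjusted p = 0.0456). The call of Kif18a was lost without WT replicate 2 (-0.11) or 3 (-0.15) or TKO replicate 1 (-0.15), 2 (-0.14) or 3 (-0.16), and with array row as a block (-0.14, adjusted p = 0.194). Kif2c (MCAK), which removes wrong microtubule attachments, differed by 0.01 ± 0.037. Its second probe rose by 0.14 (adjusted p = 0.0438 over all probes).

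Paralogs and partners were also compared within each array, where the ratio of their signals does not depend on how arrays are scaled. With 3 dishes against 3, the exact two-sided permutation test over 20 splits cannot give a p under 0.1, or 0.1125 after adjustment over the 9 pairs, so no pair could pass. The ratio of Stag2 to Stag1 rose 2.23-fold in TKO, by 1.16 in log2, with the 3 TKO dishes between 1.12 and 1.24 above the WT mean and the WT dishes within 0.13 of it. The ratio of Ncapg to Ncapd2 was 1.99-fold lower (-0.99), and its TKO dishes lay between -1.04 and -0.93 against WT dishes of -0.09 to 0.07. The size of that change depended on processing, with -0.68 under normexp background correction and -1.13 under quantile normalization. Bub1b to Bub1 moved by -0.55, Ccnb2 to Ccnb1 by -0.46, Pttg1 to Espl1 by 0.43, Sgol2 to Sgol1 by -0.32 and Nuf2 to Ndc80 by 0.20. These 7 pairs and Aurka to Aurkb (-0.49) did not overlap between the groups, each with the smallest p the exact test can give, 0.1. As single genes, 67.6% of all genes tested did not overlap, and no share was taken over other pairs. Stag2 to Stag1 and Ncapg to Ncapd2 each set a gene that rose against one that fell. Their separation therefore follows from that of the single genes. Aurkc to Aurkb moved by 0.58 with overlap (exact permutation p = 0.3). TKO replicate 2, in which Aurkb was high, lay at -0.08, and without it the change was 0.91 (exact permutation p = 0.1). That dish also set most of the change of Aurka to Aurkb, where it lay at -1.05 against -0.16 and -0.25 in the other TKO dishes. Without it that change was -0.20 (exact permutation p = 0.2), and with the chromosome shift removed -0.15 (p = 0.9). Pttg1 to Espl1 moved by 0.070 with the chromosome shift removed and by 0.0045 centred by chromosome (exact permutation p = 0.4 and 1). Sgol2 to Sgol1 moved by -0.21 and -0.13 under the same settings (p = 0.1 and 0.3), and by -0.30 without WT replicate 3 (exact permutation p = 0.2). Ccnb2 to Ccnb1 moved by -0.43 with the chromosome shift removed and by -0.30 centred by chromosome. Nuf2 to Ndc80 moved by 0.31 and 0.39 under those settings and by -2.94 with probes averaged.

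**Figure D4:**
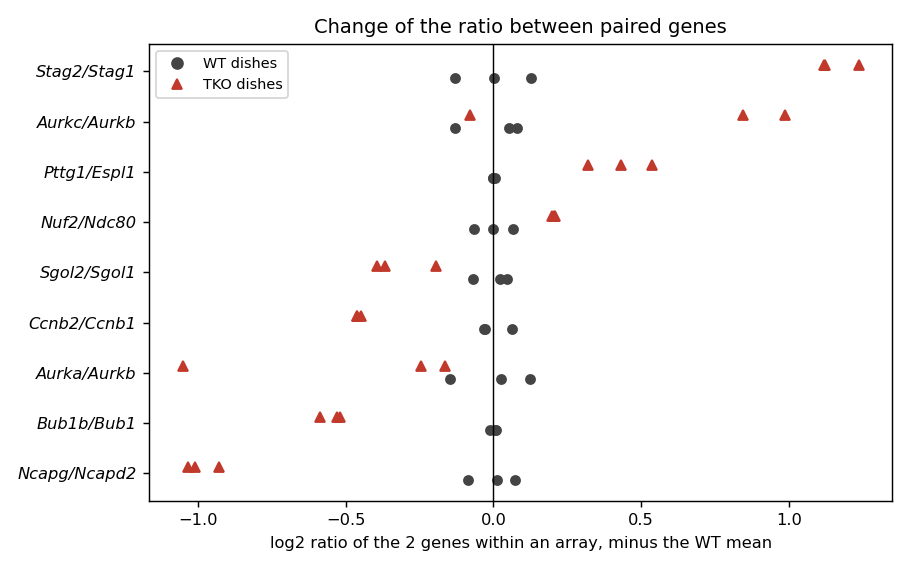
Log2 ratio of the signals of 2 genes within each array, minus the WT mean of that ratio (x axis), for 9 pairs (circles for WT dishes, triangles for TKO dishes). Stag2 to Stag1 moved farthest up and Ncapg to Ncapd2 farthest down, and WT and TKO dishes overlap in 1 pair, Aurkc to Aurkb.

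Some chromosomes had a median that differed between the groups. The median difference was 0.34 on chromosome 11, -0.22 on chromosome 8 and -0.12 on chromosome 1. No mitosis gene of the list lies on chromosome 8. The 4 on chromosome 11 (Aurkb, Birc5, Pttg1 and Top2a) include 2 of the 6 that rose, and Cenpf, Nuf2 and Sgol2 lie on chromosome 1. The medians within 5 Mb of those on chromosome 1 were 0.01, 0.11 and -0.34, so that chromosome did not shift evenly. Zwint and Cdk1, on chromosome 10 (median -0.01), both fell. Off chromosomes 1, 8, 10 and 11, 19 of 36 mitosis genes fell (52.8%) and 4 rose (11.1%), with a median of -0.19. Of all 16571 tested genes there 29.1% fell and 28.7% rose, with a median of -0.01. Set against its own neighbours within 5 Mb, 33 of the 45 genes lay below the local median. The same count was not made for all genes tested, so no share stands beside it. The local medians of the genes that moved most were small off chromosome 1: 0.05 around Aurkc, 0.14 around Ncapg, -0.03 around Ccnb2, -0.05 around Bub1b and -0.15 around Smc4.

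Related genes outside the 45 were taken in 9 further lists of 119 names, of which 117 were tested. In these, 58 fell (49.6%, against 29.7% of all genes tested), 29 rose (24.8%, against 30.0%) and 30 did not pass, with a median of -0.12. Inner kinetochore and centromere genes had the most falls, with a median of -0.28. There 15 of 20 were lower (against 29.7% of all genes tested) and 2 higher (against 30.0%). Itgb3bp (Cenp-R), a subunit of the constitutive centromere network, fell by 1.46 ± 0.036, and Oip5, a factor that loads Cenpa, by 0.66 ± 0.170, while Cenpm (0.50) and Cenpo (0.17) rose. Spindle and cytokinesis genes fell in 14 of 22 (63.6%) and rose in 2 (9.09%). Anln (anillin), which organises the contractile ring, fell by 0.88 and Ckap2, a spindle protein gene on chromosome 8, by 0.63, where the genes within 5 Mb had a median of -0.34. In the same list Kif14 (0.83) and Prc1 (0.31), of the central spindle, rose.

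Rises outnumbered falls in cohesin loading and release and in the outer kinetochore. Falls outnumbered rises in the anaphase-promoting complex and in mitotic entry. Among 9 genes of cohesin loading and release 5 rose (55.6%, against 30.0% of all genes tested) and none passed as lower (median 0.24). Wapal, which opens the ring, rose by 0.65 and Cdca5 (sororin), which protects it, by 0.58. Outer kinetochore genes rose in 7 of 16 (43.8%, against 30.0%) and fell in 6 (37.5%, against 29.7%). Their median was 0.07, with Mis12 (0.66) and Spag5 (0.53) highest and Clasp1 (-0.55) and Trip13 (-0.39) lowest. Mis12, Spag5, Spdl1 and Ska2 rose and lie on chromosome 11, where 57.5% of all genes tested rose. Relative to the median of the genes within 5 Mb, Mis12 and Spdl1 lay at 0.32, Spag5 at 0.05 and Ska2 at -0.18. Clasp1 lies on chromosome 1 among genes with a median of -0.65 within 5 Mb, and so 0.10 above its neighbours. The anaphase-promoting complex and its partners rose in 4 of 16 (25.0%, against 30.0%) and fell in 7 (43.8%, against 29.7%). Its subunits Cdc27 (0.75, chromosome 11) and Cdc23 (0.41) rose, and its activator Fzr1 (-0.61) and its ubiquitin-conjugating enzyme Ube2c (-0.52) fell. Of 14 mitotic entry genes 3 rose (21.4%, against 30.0%) and 6 fell (42.9%, against 29.7%). The phosphatase Cdc25a (0.58) and the inhibitory kinase Wee1 (0.33) rose, and Arpp19 (-0.87), an inhibitor of the phosphatase that opposes Cdk1, and the cyclin Ccnf (-0.41) fell.

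Meiotic cohesin and G1 genes showed larger sizes. The meiotic cohesin subunits Stag3 (-2.26) and Smc1b (-1.30) fell and Rec8, the meiotic kleisin, rose by 0.99, while the fourth name of the list was not among the tested genes. Of 14 genes of G1 cyclins and Cdk inhibitors 5 rose (35.7%, against 30.0% of all genes tested) and 6 fell (42.9%, against 29.7%). The inhibitors Cdkn1c (0.81) and Cdkn2b (0.60) rose, and the inhibitors Cdkn2c (-1.36) and Cdkn2a (-0.93) fell. Without the G1 and meiotic lists, 50 of 100 related genes fell and 23 rose, against 29.7% and 30.0% of all genes tested.

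**Figure D5:**
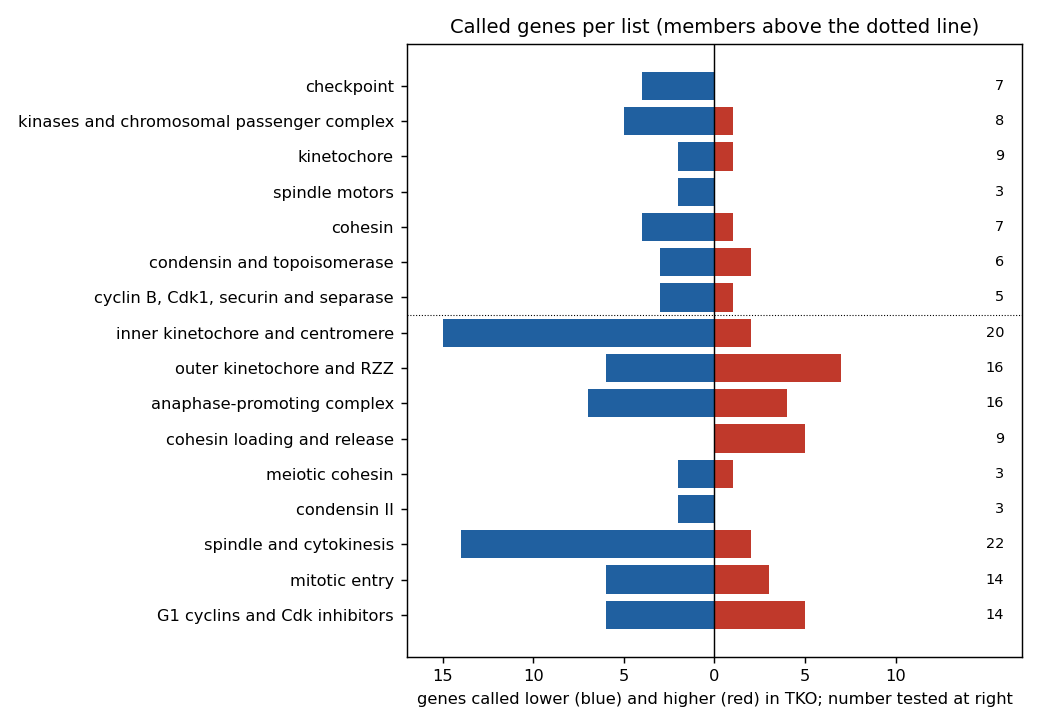
Number of genes of each list that fell (blue, left of 0) or rose (red, right of 0) in TKO (limma, adjusted p under 0.05), with the number tested at the right edge. The 7 groups of the 45 mitosis genes are above the dotted line and the 9 related lists below it. Falls outnumber rises in all 7 groups and in 7 of the 9 lists, with arrays scaled to their 75th percentile, the exceptions being outer kinetochore and cohesin loading and release.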

How the data were processed

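Each file holds 1 one-colour array of a WT or TKO dish (3 of each), extracted with version 11.5.1.1 of Agilent Feature Extraction, as the submitters' processing notes list it. The processed, mean and background signals of a spot are linear intensity values per the file headers, which place the probes on the mouse build mm9. Flags deposited for every spot (well above background, saturated, outlier) are 0 or 1, a unit classed as other. A further table deposited by the authors holds log2 values of unstated scale and centring. Its columns followed the log2 processed signal (r of at least 0.999996), had medians of -3.97, -3.97 and -4.03 (WT) and -3.9, -3.74 and -3.82 (TKO) and a 75th percentile of 0, and served as an alternative.

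Control and outlier spots were left out, spots of a probe were averaged, and each value was the log2 processed signal minus the 75th percentile of its array. A probe was kept if 3 or more of the 6 arrays had it well above background (30735 probes), and each of 21563 gene names, as in the array design, was read by its brightest kept probe. TKO and WT were compared over all genes with limma 3.58.1 in R 4.3.3 (lmFit and eBayes, two-sided, Benjamini-Hochberg), after a test on simulated data. Within-array ratios of 9 pairs were compared by exact permutation. Local medians took the tested genes within 5 Mb on each side. Sums of marker signals used linear values relative to the 75th percentile.

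Named genes were all 45 mitosis genes, Tet1, Tet2 and Tet3, and up to 2 called genes in each direction of each related list, by size of difference. Spdl1 and Ska2 were added for their chromosome. Values per array were given for genes called with a difference of at least 0.5, for Aurkb and for Cdk1, and were added for others after their values were seen. The genes and lists were chosen with earlier results of these data known. Alternatives covered background correction, scaling, filters, probe choice, the deposited table, array row, a replicate block and leaving out each array. The number of arrays limits the precision. Slide and scan were the same for every array.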

Additional observations from a re-analysis of the deposited data

How the results depend on the processing

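Over 19 alternatives, 15 of the 45 genes kept call and direction in all: Aurkc and Stag2 as higher, and Bub1b, Bub3, Cdca8, Tpx2, Ndc80, Smc1a, Stag1, Sgol1, Sgol2, Smc4, Ncapg, Ccnb1 and Ccnb2 as lower. The other 14 called genes lost the call in at least 1 alternative, 7 of them on leaving out 1 array. Of 855 results of a gene under an alternative, 734 kept sign and call, 70 lost the call, 21 gained one and 30 changed sign, and no called gene became called the other way. The number that rose was 2 with median centring, and leaving out 1 array gave 5 to 6 higher and 18 to 22 lower. The number that fell was lowest in the first array row alone, 16, and highest with median centring, 29.

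The median difference of the 45 genes was -0.36 with median centring, -0.20 centred by chromosome, -0.19 with the chromosome shift removed (chosen after seeing the data), -0.19 with probes averaged, -0.19 from the deposited table, -0.14 with array row as a block and -0.14 in the first row, and -0.18 to -0.14 on leaving out 1 array.

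Signs changed with median centring for Mad2l1 (-0.11), Aurka (-0.15), Cenpa (-0.10), Cenpe (-0.0045), Spc25 (-0.11), Kif2c (-0.18), Smc3 (-0.12), Ncapd2 (-0.055) and Ncaph (-0.17). Centred by chromosome, they changed for Aurka (-0.13), Nuf2 (0.081), Spc24 (0.089), Spc25 (-0.089), Zwilch (0.084), Ncaph (-0.15), Top2a (-0.072) and Pttg1 (-0.050). That setting subtracts a median level in each array and not the median difference of the chromosome. Aurka, Spc25 and Ncaph changed sign although the median difference on their chromosome 2 was 0.003. With the chromosome shift removed Nuf2 was 0.0022 and Kif2c -0.0087. The genes within 5 Mb of Nuf2 had a median of 0.11, unlike its chromosome, and relative to them Nuf2 lay at -0.24. With normexp Aurka was -0.0015, Ncaph -0.020 and Espl1 0.0090, and from the deposited table Kif2c was -0.017 and Ncaph -0.0033. With array row as a block, and in the first row, Bub1 was 0.018 and Espl1 0.0087. Leaving out 1 array, Kif2c lay between -0.0012 (without WT replicate 1) and 0.034, and Ncaph between -0.023 (without TKO replicate 1) and 0.054. The ratio of Nuf2 to Ndc80 was -2.94 with probes averaged, which brings in the 2 dim Nuf2 probes of TKO. Other causes were not tested.

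Same-numbered dishes did not deviate together (r = -0.069, -0.024 and 0.0063). TKO replicates 2 and 3 lay in another array row than every WT array, so this check cannot exclude a pairing by number. With the replicate block, 5 of the 45 rose and 18 fell, among 11620 called genes. Ratios of pairs were not run with a replicate block, array row as a block or another prior. One gene could not be fitted in the first row alone.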
